A study of Mus musculus with 12 samples.

Results

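The gene set described here holds 41 genes that interferons induce or that serve antigen presentation by class I molecules of the major histocompatibility complex. The genes were listed by name, grouped by role, and drawn from 35214 genes named in the data. They were chosen with earlier results of these data known, so their shares beside all genes are description and not independent support. All 41 had reads, and 40 passed the filter on low counts, against 12542 of all genes. The antiviral GTPase gene Mx1 did not pass, with 9 reads over the 12 libraries.

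The cells were Ocy454, an established mouse osteocyte-like line that is expanded at a lower temperature and matures into osteocyte-like cells after a shift to body temperature. All 4 groups were this 1 line, grown in medium with fetal bovine serum and differentiated for 5 days. They then received 1 h of pretreatment with the vehicle DMSO or with 200 nM BGJ398, an inhibitor of the kinases of all fibroblast growth factor (FGF) receptors, followed by 48 h with or without 2 ng/mL FGF2. Polyadenylated RNA was prepared on day 7 from 3 libraries each of DMSO, DMSO+FGF2, BGJ398 and BGJ398+FGF2. The labels do not say what separates the libraries of a group, so a p-value here reflects only how these libraries spread, part of which may be technical.

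Interferons bind receptors that activate JAK kinases, and these phosphorylate STAT proteins. Type I interferons act mainly through a complex that includes STAT2 and IRF9 and binds a DNA element called the interferon-stimulated response element (ISRE). Interferon gamma acts mainly through gamma-activated sites (GAS) and through the induced factor IRF1. The induced proteins sense foreign nucleic acid, block viral replication, and load peptides made by the immunoproteasome onto class I molecules. Many of these genes are also transcribed at a low level in cells that have met no added interferon, and bone cells express receptors for both interferon types.

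Promoter windows were searched for both elements, and the matches of genes named below are shown first. RefSeq windows (GRCm38.p6, 300 bases, from 250 bases before to 50 after a gene's start) were matched for 30 of the 41 genes. An ISRE, searched on both strands as GAAA, any 2 bases and GAAA again, was found in 14 of these 30 genes (46.7%), against 3.99% of 27025 genes in the same table. A GAS, searched as TTCNNNGAA, which is its own reverse complement, was found in 9 of 30 (30%), against 9.55% of all genes. Neither motif contains the other, though matches can overlap on the DNA. Of the 30 genes with a window, 13 were higher with FGF2 in DMSO or lower with BGJ398 in FGF2. Zbp1, Dhx58, Oas2, Parp14 and Ccl5 were too, but had no window and were not searched. The ISRE was found in 6 of the 13 (46.2%) and in 8 of the 17 others (47.1%). The GAS was found in 2 of these 13 (15.4%) and in 7 of the 17 others (41.2%), of which Samhd1 is 1. These are matches of letters and not measured binding. Below, capitals mark the matched bases, with GAAA reading TTTC where an ISRE lies on the other strand. The first 6 lines are ISRE matches of genes whose RNA changed, and the next 3 are GAS matches of such genes. The last 2 are ISRE matches of B2m and Cxcl10, which passed no test in the main fit (edgeR, all 12 libraries). For FGF2 in DMSO, B2m was called in 5 of 21 other settings and Cxcl10 in 1. The other 6 genes with a GAS passed no test in the main fit and are not shown.
Isg15: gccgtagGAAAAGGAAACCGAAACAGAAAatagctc
Gbp2: cttttagTTTCACTTTCactgtct
Ifit1: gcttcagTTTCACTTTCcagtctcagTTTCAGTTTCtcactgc
Gbp3: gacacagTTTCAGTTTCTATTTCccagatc
Stat2: accctggTTTCAGTTTCctttccc
Ifih1: gagaatcGAAACAGAAAccgatct
Irf1: gcctgatTTCCCCGAAatgatga
Psmb8: tccgctgTTCCCAGAAgatgccc
Samhd1: ccaccctTTCGGAGAAacacaag
B2m: agaacatGAAACTGAAAatgggaa
Cxcl10: cgctttgGAAAGTGAAActtacct
Counted from the start site as 0, in the direction of the gene, the first matched base lay at −78 in Isg15, where 3 matches overlap, at −59 in Gbp2, at −45 in Gbp3, at −222 in Stat2 and at 32 in Ifih1. Ifit1 had a first match from −104 and a separate one downstream of it. The GAS matches began at −90 in Irf1, −97 in Psmb8 and −235 in Samhd1.

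Depth ranged from 18951710 to 27716975 reads per library. The osteoblast markers summed to 19500 to 20680 CPM (read counts divided by library size, after TMM scaling) in DMSO. The 7 osteocyte markers summed to 57.4 to 61.8 CPM in DMSO, nearly all from Pdpn and Irx5, which averaged 30.7 and 31.2 CPM over the 12 libraries, while Phex averaged 0.441 CPM. Sost and Mepe had 0 reads in all 12 libraries, Fgf23 had 6 and Dmp1 had 26. With FGF2 in DMSO Pdpn rose, at 0.52 ± 0.08, and Irx5 fell, at −0.62 ± 0.09 (log2, SE). Within their groups DMSO+FGF2 replicate 2, BGJ398 replicate 1 and BGJ398+FGF2 replicate 2 deviated together, along an axis that held 22.7% of the variance within groups. The median deviation of the 40 tested genes from their group mean was 0.06, 0.06 and 0.10 (log2) in these libraries, so counts are also given without them, a setting chosen after the data were seen. That setting kept BGJ398+FGF2 replicate 3, at −0.086 with 10 of 40 genes above the group mean. It also kept DMSO+FGF2 replicate 3, at −0.045 with 11 of 40 above.

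Per length, the 41 genes spanned a wide range of levels. B2m, the invariant light chain of class I molecules, averaged 1803 TPM (abundance corrected for transcript length) over the 12 libraries, ahead of Ifi27, a small membrane protein of mitochondria, at 488 TPM and the virion-tethering protein Bst2 at 379 TPM. Isg15, the ubiquitin-like modifier, averaged 177 TPM and Irf1 79.3 TPM. The lowest tested genes were the antiviral GTPase Mx2 at 2.58 TPM and the radical enzyme Rsad2, or viperin, at 1.82 TPM. The nucleic acid sensor Zbp1 averaged 9.77 TPM, with single libraries from 4.90 to 25.3 TPM.

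**Figure D1:**
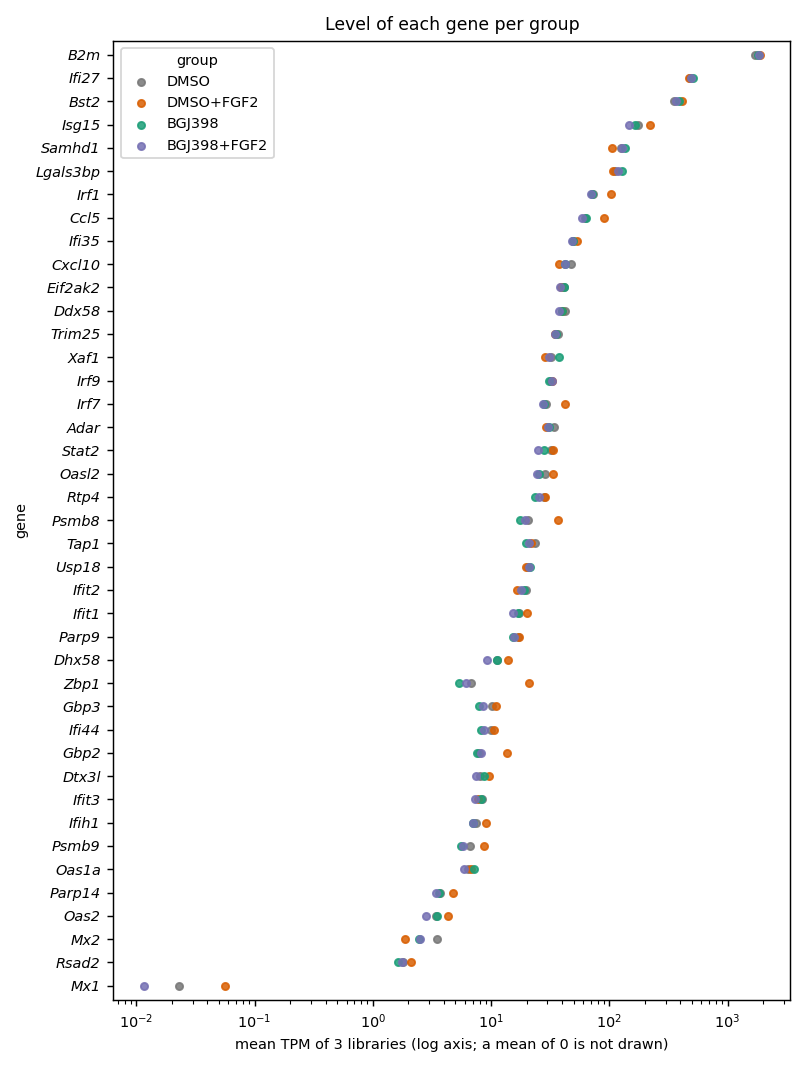
Level of each of the 41 genes. The horizontal log axis gives the mean TPM of the 3 libraries of a group, each point is 1 group, genes are ordered by their mean over 12 libraries, and a mean of 0 is not drawn. The order runs from B2m at 1803 TPM to Mx1 at 0.0228 TPM, and the points of most genes lie close together beside this range.

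FGF2 in DMSO raised 11 of the 40 tested genes and lowered 1. The share higher was 27.5%, against 7.57% of all 12542 genes, and the share lower was 2.5%, against 5.82%. The median log2 fold change of the 40 genes was 0.21, and that of all genes was −0.0037. The genes that rose were the sensors Zbp1 and Ifih1, the factors Irf1 and Irf7, the effectors Gbp2, Oasl2 and Ifit1, the ADP-ribose and ubiquitin enzymes Parp14 and Dtx3l, the immunoproteasome subunit Psmb8 and the chemokine Ccl5. The gene that fell was Samhd1. In 23 genes all DMSO+FGF2 libraries lay above all DMSO libraries and in 5 genes all lay below, or 57.5% and 12.5%, against 19.2% and 18.4% of all genes. In RNA from whole cultures, fewer cells of a type and less RNA per cell cannot be told apart.

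Under BGJ398, 0 of 40 genes passed the edgeR quasi-likelihood test for FGF2, against 0% of all genes, with 1 gene at an unadjusted p under 0.05, where 2.59% of all genes were, and 0 called by DESeq2 and by limma-voom. The median of the 40 genes was −0.04. BGJ398 without FGF2 also left 0 of 40 past the edgeR test, against 0.327% of all genes, with 2 at an unadjusted p under 0.05, where 8.27% of all genes were, and 0 by DESeq2 and by limma-voom. Without the 3 libraries that deviated together, 3 of 40 were called for BGJ398 alone, Samhd1 at 0.16, B2m at 0.17 and Isg15 at −0.31 (log2), or 7.5%, near the 5.79% of all genes called in that setting. BGJ398 with FGF2, which compares BGJ398+FGF2 with DMSO+FGF2, lowered 18 of 40 genes (45%), against 11.4% of all genes, and raised 1 (2.5%), against 10.8%, with a median of −0.27. In 20 genes (50%) all BGJ398+FGF2 libraries lay below all DMSO+FGF2 libraries, against 17.5% of all genes, and in 1 gene all lay above, against 17.3%. This comparison shares the DMSO+FGF2 libraries with that of FGF2 in DMSO, so the values are set side by side below and are not independent of each other. Where a sentence gives a pair of log2 fold changes, the first is for FGF2 in DMSO and the other for BGJ398 with FGF2, and CPM are given for replicates 1, 2 and 3 of each group.

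The numbers of calls depended on single libraries. FGF2 in DMSO called 12 of 40 genes (30%), against 13.4% of all genes. Without DMSO replicate 3 it called 7 (17.5%), and the share of all genes also fell, to 8.04%. BGJ398 with FGF2 called 19 (47.5%), against 22.2% of all genes. When each library was left out in turn it called 17 to 21 (42.5% to 52.5%), against 15.4% to 26.4% of all genes. Without the 3 libraries that deviated together, FGF2 in DMSO raised 14 (35%) and lowered 2 (5%), against 10.9% and 9.75% of all genes in that setting. BGJ398 with FGF2 then lowered 20 (50%) and raised 2 (5%), against 15.4% and 13.8%.

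**Figure D2:**
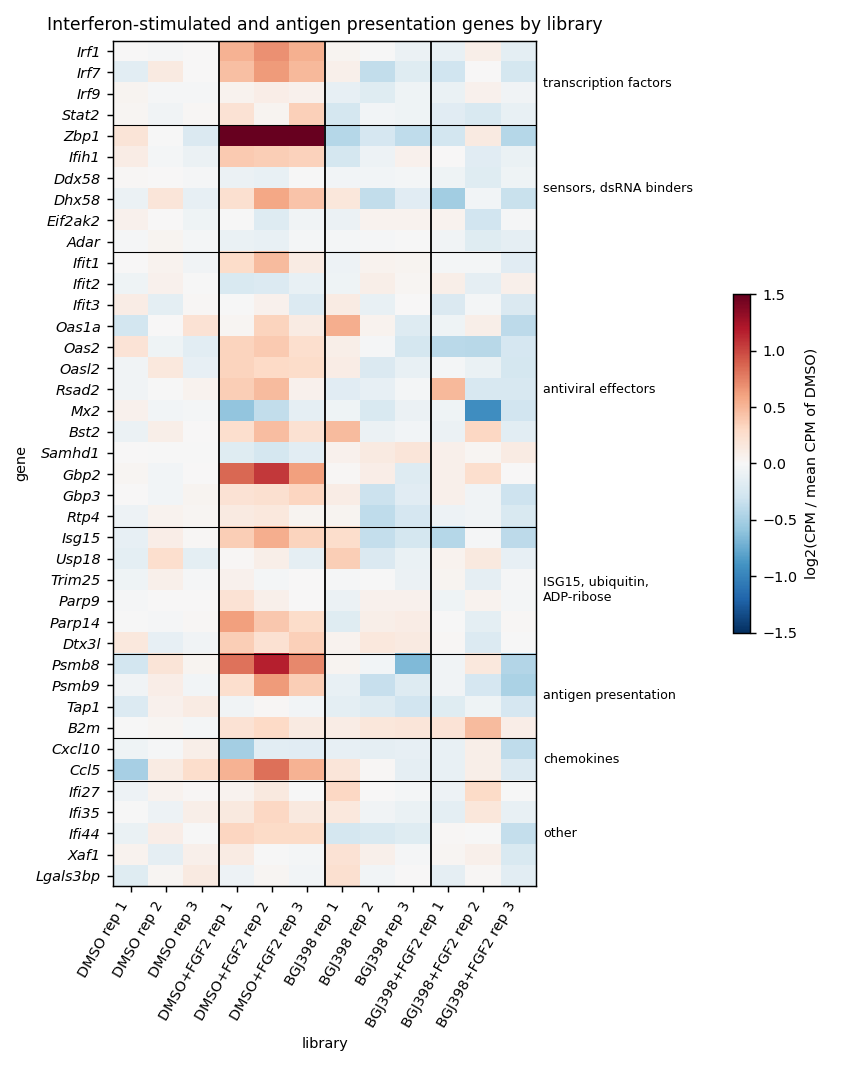
The 40 tested genes in each of the 12 libraries. Colour gives log2 of a library's CPM over the gene's mean CPM in DMSO and is capped at ±1.5. Zbp1 exceeds this cap in DMSO+FGF2 replicates 1 and 2. Columns are libraries by group, and rows are genes grouped by role. The DMSO+FGF2 columns are red for Zbp1, Gbp2, Psmb8, Irf1 and Irf7 and blue for Samhd1, which averaged 207 CPM there against 238 CPM in DMSO.

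Of the 4 transcription factors, 2 rose with FGF2 in DMSO and 3 fell with BGJ398 in FGF2. Irf1, which drives class I and immunoproteasome genes, had in DMSO 81, 79.5 and 81.2, in DMSO+FGF2 116, 129.7 and 116, in BGJ398 83, 80.05 and 75.8, and in BGJ398+FGF2 74.8, 85.6 and 72.9 CPM. These libraries averaged 80.6 ± 0.90, 121 ± 7.8, 79.6 ± 3.6 and 77.8 ± 6.8 CPM by group (SD, n = 3). It rose by 0.58 ± 0.07 on the log2 scale (SE, edgeR adjusted p = 7.01e-05) and in BGJ398+FGF2 against DMSO+FGF2 changed by −0.64 ± 0.07 (adjusted p = 2.69e-05). All 3 DMSO+FGF2 libraries lay above the other 9. Irf7, the factor that amplifies type I interferon transcription, had in DMSO 26.5, 32.3 and 29.7, in DMSO+FGF2 40.3, 46.1 and 41.4, in BGJ398 31.2, 22.9 and 26.1, and in BGJ398+FGF2 24.1, 29.7 and 24.5 CPM. The 4 group means were thus 29.5 ± 2.9, 42.6 ± 3.1, 26.7 ± 4.2 and 26.1 ± 3.1 CPM (SD, n = 3). Its log2 fold changes were 0.53 ± 0.11 (SE, adjusted p = 0.00748) for FGF2 in DMSO and −0.71 ± 0.12 (adjusted p = 0.000809) for BGJ398 with FGF2, and again no other library reached the DMSO+FGF2 range. Irf7 shares 45 exon bases on the opposite strand with Phrf1, and such reads cannot be told apart without strand.

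Stat2 and Irf9 encode subunits of the type I complex. Stat2 had in DMSO 63.3, 59.96 and 62.7, in DMSO+FGF2 72.1, 63.8 and 79.3, in BGJ398 51.7, 60.2 and 59.4, and in BGJ398+FGF2 54.9, 53 and 57.3 CPM. By group, Stat2 averaged 62 ± 1.8, 71.7 ± 7.7, 57.1 ± 4.7 and 55 ± 2.2 CPM (SD, n = 3). Its log2 fold change with FGF2 in DMSO was 0.21 ± 0.08 (SE, adjusted p = 0.104), which did not pass, and with BGJ398 in FGF2 it fell, at −0.38 ± 0.08 (adjusted p = 0.0044). DMSO+FGF2 replicate 2 lay close to the highest DMSO library. Irf9 had in DMSO 43.5, 41.9 and 41.8, in DMSO+FGF2 43.9, 45.6 and 44.3, in BGJ398 39, 37.4 and 40.4, and in BGJ398+FGF2 39.5, 44.3 and 41 CPM. Its log2 fold changes of 0.07 ± 0.06 (SE, adjusted p = 0.485) and −0.10 ± 0.06 (adjusted p = 0.264) passed neither test, and its 12 libraries stayed between 37.4 and 45.6 CPM. Irf9 shares 123 exon bases on the same strand with Rnf31, so part of its reads is uncertain.

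Among 6 nucleic acid sensors and double-stranded RNA binders, Zbp1 and Ifih1 rose with FGF2 and Dhx58 joined them among those that fell with BGJ398. Zbp1, which recognises left-handed nucleic acid and can start necroptosis, had in DMSO 3.64, 3.16 and 2.73, in DMSO+FGF2 10.5, 13.4 and 8.94, in BGJ398 2.36, 2.67 and 2.45, and in BGJ398+FGF2 2.62, 3.5 and 2.37 CPM. Means of the 4 groups in that order were 3.18 ± 0.45, 10.9 ± 2.2, 2.49 ± 0.16 and 2.83 ± 0.59 CPM (SD, n = 3). Its log2 fold change with FGF2 in DMSO was 1.79 ± 0.18 (SE, adjusted p = 2.24e-05), the largest of the 40, and with BGJ398 in FGF2 it was −1.96 ± 0.19 (adjusted p = 1.04e-05). The lowest DMSO+FGF2 library stood above the highest of the other 9, and DMSO+FGF2 replicate 2 was the highest. Ifih1, the sensor MDA5 of long double-stranded RNA, had in DMSO 19.2, 17.4 and 16.6, in DMSO+FGF2 23.3, 22.9 and 22.6, in BGJ398 14.8, 16.9 and 18.6, and in BGJ398+FGF2 17.9, 15.8 and 16.6 CPM. Group means were 17.8 ± 1.3, 22.9 ± 0.36, 16.8 ± 1.9 and 16.8 ± 1.1 CPM in the same order (SD, n = 3). It changed by 0.37 ± 0.09 (SE, adjusted p = 0.0137) and by −0.45 ± 0.09 (adjusted p = 0.00314). The DMSO+FGF2 libraries were close together and above the rest, but the FGF2 call was lost without DMSO replicate 2 (adjusted p = 0.0576) or replicate 3 (adjusted p = 0.0702), and with length-scaled TPM in place of counts (adjusted p = 0.0997).

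Dhx58, or LGP2, which modulates the RIG-I-like sensors, had in DMSO 13, 15.7 and 12.7, in DMSO+FGF2 16.3, 20.6 and 18.6, in BGJ398 15.5, 10.7 and 12.3, and in BGJ398+FGF2 9.63, 13.4 and 11 CPM. These libraries averaged 13.8 ± 1.7, 18.5 ± 2.1, 12.8 ± 2.5 and 11.3 ± 1.9 CPM by group (SD, n = 3). FGF2 in DMSO gave 0.42 ± 0.15 (SE, adjusted p = 0.0844), not past the threshold although the groups did not overlap, and BGJ398 with FGF2 gave −0.71 ± 0.15 (adjusted p = 0.00491). Ddx58, the sensor RIG-I, also named Rigi, the translation-stopping kinase Eif2ak2, or PKR, and the RNA-editing enzyme Adar passed neither test. Their log2 fold changes lay between −0.08 and −0.07 for FGF2 in DMSO and between −0.05 and 0.01 for BGJ398 with FGF2. Part of the reads of Adar is uncertain, since 15.4% of its 31-base sequences also occur in other genes, mostly its opposite-strand neighbour Chrnb2. Chrnb2 had 504 reads over the 12 libraries, against 23042 for Adar.

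**Figure D3:**
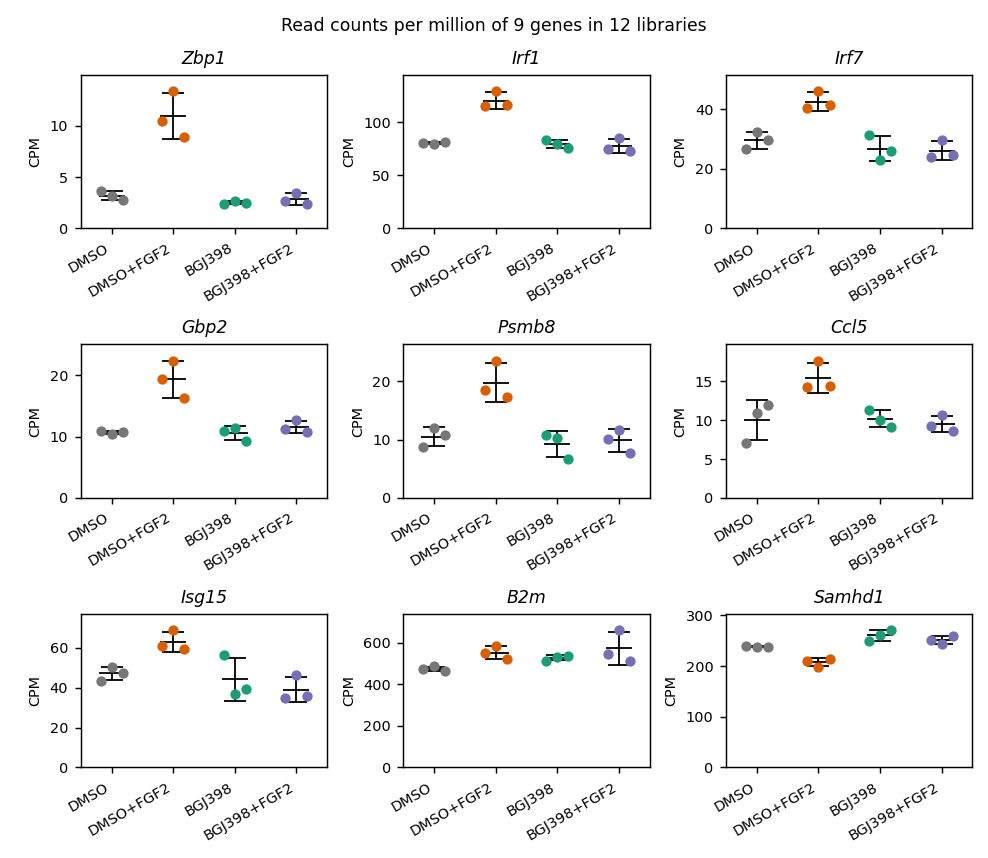
CPM of 9 genes in 12 libraries. The vertical axis of each panel is CPM from 0, points are libraries, and bars show the mean ± SD of 3 libraries per group. DMSO+FGF2 stands above the other groups for Zbp1, with libraries from 8.94 to 13.4 CPM, and for Irf1, Irf7, Gbp2, Psmb8, Ccl5 and Isg15, while Samhd1 is lowest there and B2m is highest in BGJ398+FGF2 replicate 2 at 661 CPM.

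Of the 14 antiviral effectors 13 were tested, with 3 higher and 1 lower for FGF2 in DMSO, and 5 lower and 1 higher for BGJ398 with FGF2. Gbp2, a guanylate-binding GTPase that attacks the compartments of intracellular pathogens, had in DMSO 11, 10.4 and 10.8, in DMSO+FGF2 19.4, 22.4 and 16.4, in BGJ398 10.9, 11.5 and 9.35, and in BGJ398+FGF2 11.3, 12.8 and 10.8 CPM. The 4 group means were thus 10.7 ± 0.26, 19.4 ± 3.0, 10.6 ± 1.1 and 11.6 ± 1.0 CPM (SD, n = 3). Its log2 fold changes were 0.86 ± 0.12 (SE, adjusted p = 0.000258) for FGF2 in DMSO and −0.74 ± 0.12 (adjusted p = 0.000607) for BGJ398 with FGF2. The DMSO+FGF2 libraries were spread but all above the other 9. Its relative Gbp3 had in DMSO 11.4, 11.1 and 11.7, in DMSO+FGF2 13.2, 13.5 and 14.2, in BGJ398 12.3, 9.06 and 10.1, and in BGJ398+FGF2 11.9, 11 and 9.14 CPM. By group, Gbp3 averaged 11.4 ± 0.29, 13.6 ± 0.53, 10.5 ± 1.6 and 10.7 ± 1.4 CPM (SD, n = 3). Its log2 fold changes were 0.26 ± 0.12 (SE, adjusted p = 0.172) with FGF2, not past the threshold, and −0.35 ± 0.12 (adjusted p = 0.0491) with BGJ398. The latter call was lost when any DMSO library, any DMSO+FGF2 library, BGJ398 replicate 3, or BGJ398+FGF2 replicate 2 or 3 was left out, with adjusted p up to 0.173 (without BGJ398+FGF2 replicate 3), and at 0.0528 with a replicate block.

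Ifit1, which binds viral RNA with an incomplete cap, had in DMSO 23.9, 24.8 and 23, in DMSO+FGF2 29, 33.2 and 26.1, in BGJ398 22.7, 24.7 and 24.5, and in BGJ398+FGF2 23.4, 23.5 and 21.3 CPM. Means of the 4 groups in that order were 23.9 ± 0.91, 29.4 ± 3.6, 24 ± 1.1 and 22.7 ± 1.2 CPM (SD, n = 3). It changed by 0.30 ± 0.09 (SE, adjusted p = 0.0336) with FGF2 in DMSO and by −0.37 ± 0.09 (adjusted p = 0.00802) with BGJ398 in FGF2. DMSO+FGF2 replicate 2 was the highest library, and without it the FGF2 change was 0.20 (adjusted p = 0.17). The call was also lost without DMSO replicate 1, 2 or 3 (adjusted p = 0.0911, 0.0667 and 0.124) and without DMSO+FGF2 replicate 1 (adjusted p = 0.0697). Ifit2 and Ifit3, of the same family, did not pass in either comparison, with Ifit2 at −0.18 ± 0.07 and 0.20 ± 0.08 (SE) and Ifit3 at −0.04 ± 0.11 and −0.11 ± 0.12. Of the 31-base sequences of Ifit3, 61.8% recur in other genes, mostly Ifit3b, so its reads are uncertain. Of those of Ifit1 10.6% do, most often in Ifit1bl1, so part of its reads is uncertain. Ifit1bl1 had 16 reads over the 12 libraries, against 6681 for Ifit1.

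The oligoadenylate synthetases make the second messenger that activates RNase L. Oasl2, a relative of these enzymes, had in DMSO 29.3, 33.8 and 27.9, in DMSO+FGF2 38.3, 37.3 and 36.7, in BGJ398 32.7, 26.2 and 28.1, and in BGJ398+FGF2 29.7, 28.4 and 25.2 CPM. Group means were 30.3 ± 3.1, 37.4 ± 0.84, 29 ± 3.4 and 27.8 ± 2.3 CPM in the same order (SD, n = 3). It changed by 0.30 ± 0.09 (SE, adjusted p = 0.0495) and by −0.43 ± 0.10 (adjusted p = 0.00585). The FGF2 call stood at the threshold and was lost when DMSO replicate 1 or 3, any DMSO+FGF2 library, BGJ398 replicate 3 or BGJ398+FGF2 replicate 1 was left out, with adjusted p from 0.054 to 0.194. Oas2 had in DMSO 8.24, 6.86 and 6.41, in DMSO+FGF2 9.06, 9.37 and 8.56, in BGJ398 7.61, 7.1 and 5.97, and in BGJ398+FGF2 5.43, 5.38 and 6.01 CPM. These libraries averaged 7.17 ± 0.95, 9.0 ± 0.41, 6.89 ± 0.84 and 5.61 ± 0.35 CPM by group (SD, n = 3). FGF2 in DMSO gave 0.33 ± 0.12 (SE, adjusted p = 0.0945), and BGJ398 with FGF2 lowered it, at −0.68 ± 0.13 (adjusted p = 0.00191), with BGJ398+FGF2 the lowest of the 4 groups on average. Oas1a passed neither test and is uncertain, since 68.8% of its 31-base sequences occur in other genes, mostly Oas1g.

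Samhd1, which breaks down deoxynucleotides and so starves reverse transcription, went the other way. It had in DMSO 239.6, 237 and 238, in DMSO+FGF2 209.9, 198 and 214, in BGJ398 249, 262 and 271, and in BGJ398+FGF2 252, 244 and 259 CPM. The 4 group means were thus 238 ± 1.3, 207 ± 7.9, 261 ± 11 and 252 ± 7.7 CPM (SD, n = 3). It changed by −0.20 ± 0.05 (SE, adjusted p = 0.0165) with FGF2 in DMSO and by 0.28 ± 0.05 (adjusted p = 0.00152) with BGJ398 in FGF2. The 3 DMSO+FGF2 libraries were the lowest of the 12. The FGF2 call was lost without any 1 DMSO library (adjusted p = 0.0599, 0.056 and 0.058) and without DMSO+FGF2 replicate 2 (adjusted p = 0.0761). The remaining effectors, Bst2, Rsad2, Mx2 and Rtp4, passed no test in the main fit. Their FGF2 changes in DMSO ran from −0.35 for Mx2 to 0.32 for Bst2. Mx2 and Rsad2 averaged 2.76 and 3.40 CPM and had wider errors, of 0.21 and 0.20 (log2, SE).

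In the ISG15 system and its ubiquitin and ADP-ribose enzymes, 2 of 6 genes rose with FGF2 in DMSO and 3 fell with BGJ398 in FGF2. Isg15 had in DMSO 43.5, 50.3 and 47.6, in DMSO+FGF2 60.8, 68.9 and 59.6, in BGJ398 56.6, 36.7 and 39.4, and in BGJ398+FGF2 35.1, 46.4 and 35.9 CPM. By group, Isg15 averaged 47.1 ± 3.5, 63.1 ± 5.1, 44.2 ± 11 and 39.1 ± 6.3 CPM (SD, n = 3). Its FGF2 change in DMSO was 0.42 ± 0.14 (SE, adjusted p = 0.0733), short of the threshold although the groups did not overlap, and with BGJ398 in FGF2 it fell, at −0.69 ± 0.15 (adjusted p = 0.00437). BGJ398 replicate 1 and BGJ398+FGF2 replicate 2 were the highest of their groups. Of the 31-base sequences of Isg15, 13.1% occur in other genes, most often in AC151275.1, which had 8 reads. Parp14, an ADP-ribosyltransferase, had in DMSO 15.6, 15.5 and 15.9, in DMSO+FGF2 23.9, 20.8 and 19, in BGJ398 13.8, 16.7 and 16.9, and in BGJ398+FGF2 15.6, 14.1 and 15.8 CPM. Means of the 4 groups in that order were 15.7 ± 0.17, 21.2 ± 2.5, 15.8 ± 1.7 and 15.2 ± 0.93 CPM (SD, n = 3). It changed by 0.44 ± 0.10 (SE, adjusted p = 0.00992) and by −0.49 ± 0.10 (adjusted p = 0.00408), and all DMSO+FGF2 libraries lay above the other 9.

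Dtx3l, a ubiquitin ligase that works as a pair with Parp9, had in DMSO 25.6, 21 and 22, in DMSO+FGF2 29.6, 26.8 and 29.4, in BGJ398 23.6, 25.6 and 25, and in BGJ398+FGF2 23.1, 19.9 and 22.9 CPM. Group means were 22.9 ± 2.4, 28.6 ± 1.5, 24.8 ± 1.0 and 21.9 ± 1.8 CPM in the same order (SD, n = 3). It changed by 0.33 ± 0.09 (SE, adjusted p = 0.024) and by −0.38 ± 0.09 (adjusted p = 0.0076). DMSO replicate 1 came close to the lowest DMSO+FGF2 library. The FGF2 call was lost without DMSO replicate 2 (adjusted p = 0.116) or 3 (adjusted p = 0.0973), and without DMSO+FGF2 replicate 1 (adjusted p = 0.0805) or 3 (adjusted p = 0.0756). Its partner Parp9 passed neither test, at 0.10 ± 0.07 and −0.12 ± 0.07 (SE). The 2 genes overlap by 458 exon bases on opposite strands, so part of their reads cannot be assigned with certainty. Usp18, which removes ISG15 from proteins, and the ligase Trim25 had log2 fold changes of −0.01 ± 0.15 and 0.01 ± 0.06 with FGF2 in DMSO, and neither passed.

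Of the 4 antigen presentation genes of the set, 1 rose with FGF2 in DMSO and 2 fell with BGJ398 in FGF2. Psmb8, a catalytic subunit of the immunoproteasome, had in DMSO 8.69, 12 and 10.8, in DMSO+FGF2 18.5, 23.6 and 17.3, in BGJ398 10.8, 10.2 and 6.61, and in BGJ398+FGF2 10.1, 11.7 and 7.77 CPM. These libraries averaged 10.5 ± 1.7, 19.8 ± 3.3, 9.2 ± 2.3 and 9.86 ± 2.0 CPM by group (SD, n = 3). It changed by 0.91 ± 0.19 (SE, adjusted p = 0.00544) and by −1.01 ± 0.19 (adjusted p = 0.0022), with all DMSO+FGF2 libraries above the other 9. Psmb9, another catalytic subunit, had in DMSO 4.55, 5.04 and 4.57, in DMSO+FGF2 5.62, 7.37 and 6.09, in BGJ398 4.38, 3.73 and 4.11, and in BGJ398+FGF2 4.57, 3.98 and 3.41 CPM. The 4 group means were thus 4.72 ± 0.28, 6.36 ± 0.91, 4.07 ± 0.33 and 3.99 ± 0.58 CPM (SD, n = 3). FGF2 in DMSO gave 0.43 ± 0.15 (SE, adjusted p = 0.0728), not past the threshold, and BGJ398 with FGF2 gave −0.67 ± 0.15 (adjusted p = 0.00627). DMSO+FGF2 again held the 3 highest libraries.

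Tap1, a subunit of the transporter that carries peptides to class I molecules, had in DMSO 34.6, 41.6 and 43.2, in DMSO+FGF2 38.4, 40.2 and 38.7, in BGJ398 36.1, 34.7 and 32.6, and in BGJ398+FGF2 35, 38.1 and 33.3 CPM. By group, Tap1 averaged 39.8 ± 4.5, 39.1 ± 0.96, 34.5 ± 1.7 and 35.5 ± 2.4 CPM (SD, n = 3). The log2 fold changes of −0.03 ± 0.08 (SE, adjusted p = 0.87) and −0.14 ± 0.08 (adjusted p = 0.254) passed neither test, and the DMSO libraries alone spanned more than the DMSO+FGF2 libraries. B2m had in DMSO 475, 486 and 465, in DMSO+FGF2 553, 583 and 523, in BGJ398 513, 533 and 538, and in BGJ398+FGF2 546, 661 and 511 CPM. Means of the 4 groups in that order were 475 ± 10.4, 553 ± 29.6, 528 ± 13 and 572 ± 78 CPM (SD, n = 3). Its log2 fold changes were 0.22 ± 0.08 (SE, adjusted p = 0.0882) and 0.05 ± 0.08 (adjusted p = 0.697), neither past the threshold. Although DMSO and DMSO+FGF2 did not overlap, BGJ398+FGF2 replicate 2 was the highest of all 12 libraries.

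Psmb9 and Tap1 start back to back on opposite strands, and the whole sequence between their start sites is shown because Psmb9 passed a test that Tap1 did not. It is chr17:34187331-34187555 (RefSeq, GRCm38.p6, plus strand, which is that of Tap1), 225 bases long, and the start sites of Psmb9 and Tap1 lie just outside its left and right ends. Capitals mark the single TTTC and the single GAAA, the repeated unit of an ISRE, and neither a whole ISRE nor a GAS was found.
Psmb9-Tap1: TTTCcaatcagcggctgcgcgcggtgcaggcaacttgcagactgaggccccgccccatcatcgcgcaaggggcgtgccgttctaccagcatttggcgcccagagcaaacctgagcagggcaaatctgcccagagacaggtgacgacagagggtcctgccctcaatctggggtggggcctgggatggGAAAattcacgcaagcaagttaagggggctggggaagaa
The exons of these genes overlap by 212 bases on opposite strands, which makes part of their reads uncertain. Whether the changes of Psmb9 and Tap1 differ from each other was not tested.

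Of the chemokines, Ccl5 rose and Cxcl10 did not pass. Ccl5, which attracts T cells and monocytes, had in DMSO 7.08, 10.8 and 12, in DMSO+FGF2 14.3, 17.6 and 14.3, in BGJ398 11.3, 10.1 and 9.11, and in BGJ398+FGF2 9.23, 10.6 and 8.62 CPM. Group means were 9.96 ± 2.6, 15.4 ± 1.9, 10.2 ± 1.1 and 9.48 ± 1.0 CPM in the same order (SD, n = 3). It changed by 0.62 ± 0.16 (SE, adjusted p = 0.0223) and by −0.70 ± 0.17 (adjusted p = 0.00852). DMSO replicate 1 was low, and without it the FGF2 change was 0.44 (adjusted p = 0.0622), while without DMSO+FGF2 replicate 2, the highest library, it was 0.51 (adjusted p = 0.102). Cxcl10, a ligand of CXCR3 on T cells, had in DMSO 19.8, 20.4 and 21.9, in DMSO+FGF2 14.5, 18.6 and 18.4, in BGJ398 19, 18.8 and 19.1, and in BGJ398+FGF2 19.2, 21.9 and 15.9 CPM. For Cxcl10 the log2 fold changes were −0.27 ± 0.12 (SE, adjusted p = 0.15) and 0.15 ± 0.12 (adjusted p = 0.404), neither past the threshold, although all 3 DMSO+FGF2 libraries were below all DMSO libraries.

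Among the 5 other induced proteins, 0 passed the edgeR test for FGF2 in DMSO, with 2 at an unadjusted p under 0.05 and 0 called by DESeq2 and by limma-voom. Ifi44 fell with BGJ398 in FGF2. It had in DMSO 7.83, 8.96 and 8.32, in DMSO+FGF2 10.5, 10.2 and 10.2, in BGJ398 6.98, 7.15 and 7.39, and in BGJ398+FGF2 8.46, 8.34 and 6.54 CPM. These libraries averaged 8.37 ± 0.57, 10.3 ± 0.18, 7.17 ± 0.21 and 7.78 ± 1.1 CPM by group (SD, n = 3). For Ifi44 the log2 fold changes were 0.30 ± 0.11 (SE, adjusted p = 0.0902) and −0.41 ± 0.11 (adjusted p = 0.0171), the latter lost without DMSO+FGF2 replicate 1 (adjusted p = 0.0522) or BGJ398+FGF2 replicate 3 (adjusted p = 0.0625). Ifi27, Ifi35, the apoptosis-linked Xaf1 and the secreted glycoprotein Lgals3bp had log2 fold changes of −0.03 to 0.20 with FGF2 in DMSO, and none of these 4 passed either test.

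**Figure D4:**
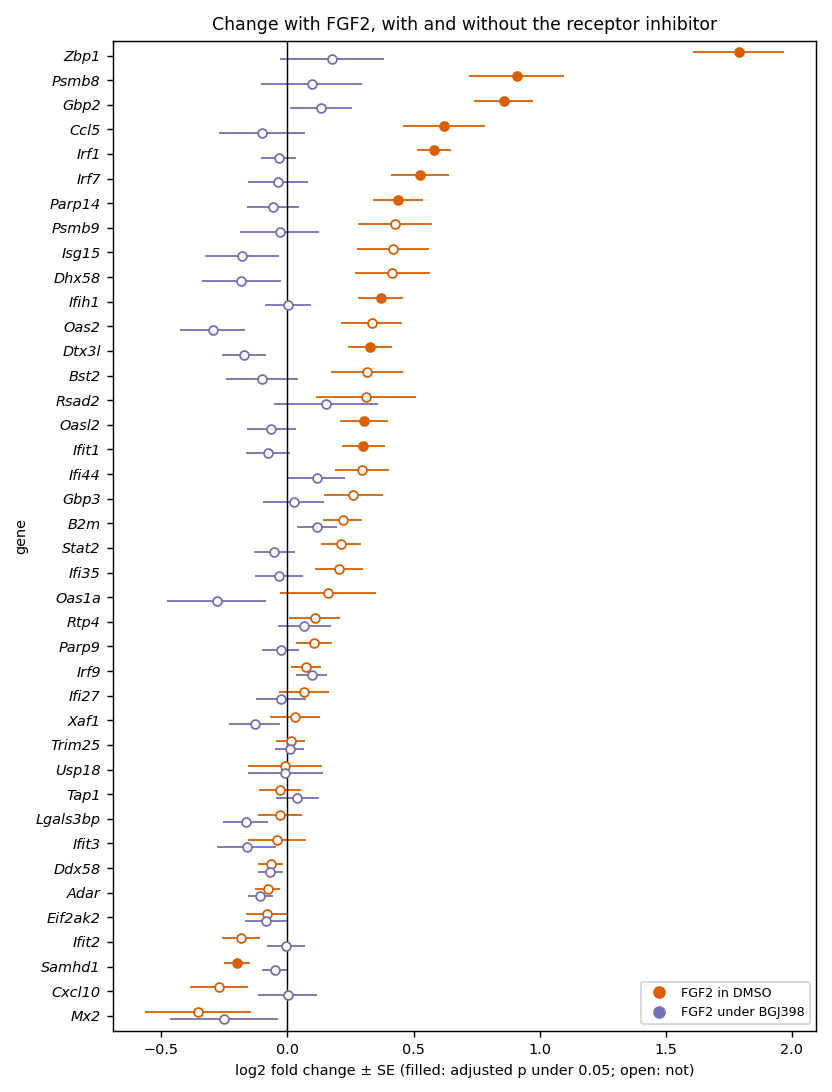
Change of the 40 tested genes with FGF2 in DMSO and under BGJ398. The horizontal axis is the log2 fold change with its SE, filled points passed an adjusted p of 0.05 and open points did not, and genes are ordered by the change in DMSO. Zbp1 leads at 1.79 in DMSO beside 0.18 under BGJ398, and no point under BGJ398 is filled.

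The test of the difference itself, the interaction, asked whether FGF2 changed a gene otherwise under BGJ398 than in DMSO. It was passed by 4 of 40 genes, all with a lower value under BGJ398 (10%, against 2.25% of all genes in that direction), and the median of the 40 was −0.21. No gene of the set passed in the other direction, in which 1.99% of all genes did. The difference was −1.61 ± 0.27 for Zbp1 (SE, edgeR adjusted p = 0.00389), −0.62 ± 0.10 for Irf1 (adjusted p = 0.0023), −0.72 ± 0.17 for Gbp2 (adjusted p = 0.0266) and −0.50 ± 0.12 for Dtx3l (adjusted p = 0.0385). Under BGJ398 itself the FGF2 change was 0.18 ± 0.21 for Zbp1, with a 95% interval of −0.27 to 0.62, and −0.04 ± 0.07 for Irf1, with −0.18 to 0.11. For Gbp2 it was 0.13 ± 0.12, with −0.13 to 0.40, and for Dtx3l −0.17 ± 0.09, with −0.36 to 0.02. For Psmb8 the difference was −0.81 ± 0.27 (adjusted p = 0.127) and the interval under BGJ398 ran over −0.34 to 0.53, an interval that holds both 0 and a smaller rise. Irf7 missed the threshold at −0.56 ± 0.16 (adjusted p = 0.0777), as did Parp14 at −0.49 ± 0.14 (adjusted p = 0.0756). The count fell to 2 (5%), which were Zbp1 and Irf1, without DMSO replicate 2 or 3, DMSO+FGF2 replicate 1, or BGJ398+FGF2 replicate 1 or 3. Of all genes, 2.59% to 3.61% were called in those settings. Without BGJ398+FGF2 replicate 2 the count rose to 7 (17.5%), against 7.54% of all genes. Gbp2 and Dtx3l each lost the call in 9 of 20 settings, with adjusted p up to 0.0757 for Gbp2 (without DMSO replicate 2 or BGJ398 replicate 2) and 0.113 for Dtx3l (without DMSO replicate 2).

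Other genes of the pathway were followed in lists written by function, also with earlier results of these data known. Their shares are description in the same way. Of all genes, 7.57% rose and 5.82% fell with FGF2 in DMSO, and 11.4% fell and 10.8% rose with BGJ398 in FGF2, the shares against which the counts of each list are read. The 10 listed interferon ligands, Ifnb1, Ifna1, Ifna2, Ifna4, Ifna5, Ifne, Ifnk, Ifng, Ifnl2 and Ifnl3, had 0 reads in all 12 libraries. With 265933878 reads in all, a count of 0 allows up to 3 reads at 95% confidence, or 0.0113 CPM over the 12 libraries pooled. In the single library of lowest depth the same bound is 0.159 CPM. Both cover counting error only and only RNA present at lysis. Of the 16 tested receptors and JAK-STAT genes reported here, 3 rose with FGF2 in DMSO (18.8%) and 5 fell with BGJ398 in FGF2 (31.2%). Socs3, the feedback inhibitor of JAK kinases, changed by 0.67 ± 0.09 and −0.74 ± 0.09 (log2, SE), and Stat3, the factor of interleukin-6 type cytokines, by 0.35 ± 0.05 and −0.32 ± 0.05. Among 13 tested sensing adaptors and kinases, 2 rose with FGF2 in DMSO (15.4%) and 4 fell with BGJ398 in FGF2 (30.8%), and Sting1, the adaptor of cytosolic DNA sensing, changed by 0.41 ± 0.09 and −0.61 ± 0.09.

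Among 51 tested further interferon-stimulated genes, 13 rose and 0 fell with FGF2 in DMSO (25.5% higher, against 7.57% of all genes), with a median of 0.24, and 22 fell and 0 rose with BGJ398 in FGF2 (43.1% lower, against 11.4%), with a median of −0.39. The helicase-like Ddx60 changed by 0.81 ± 0.13 and −1.27 ± 0.14 (log2, SE), Uba7, the activating enzyme of ISG15, by 0.63 ± 0.12 and −1.14 ± 0.13, and the RNA helicase Znfx1 by 0.37 ± 0.06 and −0.52 ± 0.06. Gbp9, of the guanylate-binding family, changed by 0.61 ± 0.16 and −0.90 ± 0.16, and 18.3% of its 31-base sequences occur in other genes. The GTPase Tgtp2 gave 0.74 ± 0.13 and −0.53 ± 0.13 and is uncertain, as 90.5% of its 31-base sequences recur elsewhere.

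Of 16 tested further antigen presentation genes, 11 rose and 0 fell with FGF2 in DMSO (68.8% higher, against 7.57% of all genes), with a median of 0.33, and 10 fell and 0 rose with BGJ398 in FGF2 (62.5% lower, against 11.4%), with a median of −0.39. The class I heavy chain H2-K1 had in DMSO 182, 214 and 204, in DMSO+FGF2 311, 355 and 291, in BGJ398 228, 202 and 195, and in BGJ398+FGF2 224, 249 and 202 CPM. It changed by 0.67 ± 0.09 and −0.51 ± 0.09 (log2, SE), and all DMSO+FGF2 libraries lay above the other 9. The non-classical heavy chain H2-T23 changed by 0.95 ± 0.14 and −0.97 ± 0.14. These heavy chains are alike in sequence, and 22.7% and 25.3% of the 31-base sequences of H2-K1 and H2-T23 occur in other genes. Tapbp, or tapasin, which holds class I molecules at the transporter, changed by 0.58 ± 0.07 and −0.63 ± 0.07, and the related peptide editor Tapbpl by 0.54 ± 0.10 and −0.70 ± 0.10. Psmb10, the remaining catalytic subunit of the immunoproteasome, changed by 0.84 ± 0.15 and −0.94 ± 0.15. Of 6 proteasome subunits of the constitutive particle, 0 passed the edgeR test for FGF2 in DMSO, with 1 at an unadjusted p under 0.05, 1 called by DESeq2, Psma1 as lower, and 0 by limma-voom. With BGJ398 in FGF2 Psma1, Psma5 and Psmb7 rose, at 0.37 ± 0.07, 0.27 ± 0.08 and 0.25 ± 0.08. Of the 6 subunits, Psma1, Psma3 and Psma5 are also part of the immunoproteasome.

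**Figure D5:**
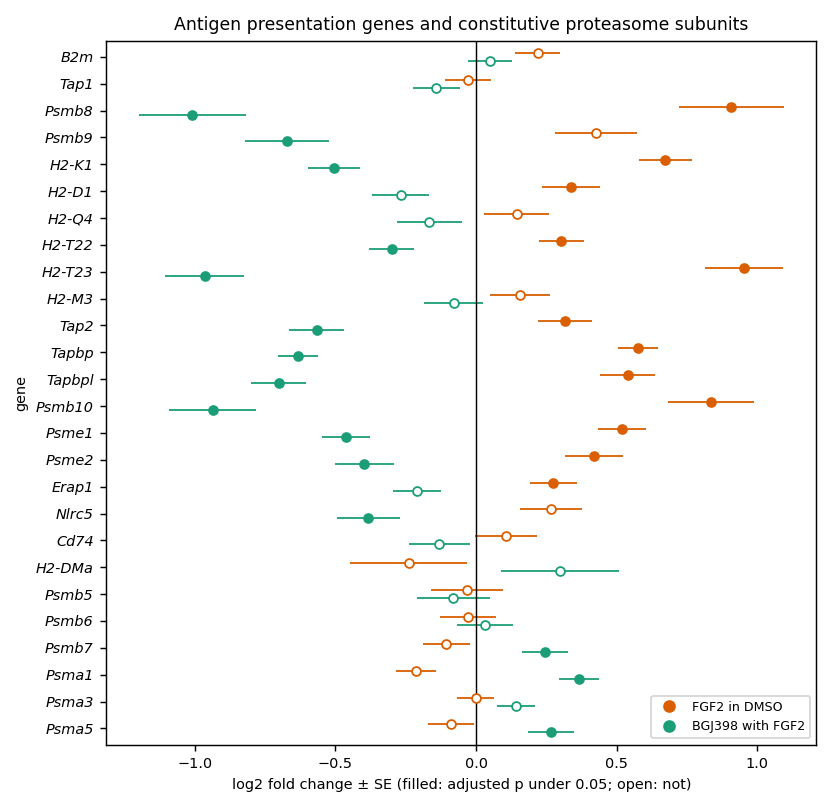
Change of antigen presentation genes and of subunits of the constitutive proteasome with FGF2 in DMSO and with BGJ398 in FGF2. Psma1, Psma3 and Psma5 are also part of the immunoproteasome. The horizontal axis is the log2 fold change with its SE, filled points passed an adjusted p of 0.05 and open points did not, and the 2 comparisons share the DMSO+FGF2 libraries. Psmb8, Psmb10, H2-T23, H2-K1 and Tapbp lie right of 0 with FGF2 and left of 0 with BGJ398, while Tap1 lies near 0 in both, at −0.03 and −0.14.

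Markers of other cell types were read beside these groups. The 10 macrophage and leukocyte markers summed to 5.47 to 5.61 CPM in DMSO, 8.75 to 10.95 CPM in DMSO+FGF2, 5.24 to 6.79 CPM in BGJ398 and 5.61 to 7.32 CPM in BGJ398+FGF2. Cd68, a lysosomal protein among the 10, rose with FGF2 in DMSO, from 1.52 ± 0.44 to 5.94 ± 0.81 CPM (SD, n = 3), at 1.94 ± 0.22 (SE, edgeR adjusted p = 6.59e-05). Lyz2, the lysozyme of macrophages, had a log2 fold change of −1.19 ± 0.40 with FGF2 in DMSO (SE, adjusted p = 0.0658), which did not pass, and rose with BGJ398 in FGF2, at 1.77 ± 0.39 (adjusted p = 0.00585), where Cd68 fell, at −1.30 ± 0.22. Csf1r and Cd14 passed neither test, with Csf1r at −0.75 ± 0.68 and 0.45 ± 0.72 and Cd14 at 0.27 ± 0.23 and −0.53 ± 0.23 (SE). The reads of Csf1r are uncertain, since 15.2% of its 31-base sequences occur in other genes, mostly Hmgxb3. Hmgxb3 overlaps it by 873 exon bases on the opposite strand. The other 6 of the 10 had too few reads to be tested. Adgre1 and Tyrobp had 0 reads in 12 libraries, Ptprc 2, Laptm5 3, Itgam 5 and Aif1 6. Endothelial markers summed to 0 to 0.352 CPM and adipocyte markers to 0 to 0.108 CPM in single libraries. The 8 osteoblast markers all fell with FGF2 in DMSO, to a sum of 12300 to 14300 CPM, and the part of Cd68 and of this change in the results above was not tested.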

How the data were processed

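The submitters' processing notes name Salmon, without a version, and genome build GRCm39. Annotation, library type and use of strand were not given in the sources used here. Per the file headers, the authors deposited for each of 116178 transcripts an expected count (estimated reads, not scaled), an abundance as TPM (length-corrected, with the same total in every library) and an effective length in bases.

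Gene names came from GENCODE M21 (build GRCm38) through transcript identifiers, with 114656 transcripts matched to 35214 genes. The other 1522 transcripts held 0.499% to 0.641% of a library's reads and stayed out of library sizes and tests. Per-gene sums of the expected counts were rounded to whole numbers. The edgeR quasi-likelihood test (edgeR 4.0.16, R 4.3.3) was fitted on the 12542 genes that passed filterByExpr, with TMM scaling and 1 model of 4 group means over 12 libraries (8 residual degrees of freedom), and p-values were adjusted by Benjamini-Hochberg over all genes tested, with a threshold of 0.05. All tests were 2-sided. A log2 fold change is printed ± its SE, and CPM use TMM-scaled library sizes. Libraries of the same group differed by 3.21 to 24.8 times the Poisson expectation, and none was treated as a duplicate. The procedure was also run on simulated counts with the same spread for every gene and no libraries that deviated together. That run therefore cannot show how the test behaves with such libraries.

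The sample titles gave the groups and replicate numbers. Alternatives were DESeq2 1.42.0, limma-voom (limma 3.58.1), DESeq2 size factors, other count filters, only the groups compared, length-scaled TPM, a replicate block and each library left out. The genes and lists were chosen with earlier results of these data known, and 1 gene of the receptor and JAK-STAT list is not reported here. Values per library are given for genes of the set that passed any test in the main fit. They are also given for the 4 transcription factors, the 4 antigen presentation genes, Cxcl10 and H2-K1. Cxcl10 and H2-K1 were chosen after their values were seen. From the other lists up to 5 called genes with the smallest p were named. No coordinates of the files' own build are given.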

Additional observations from a re-analysis of the deposited data

Results flagged for a closer look

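In 4 genes of the set the FGF2 change under BGJ398 differed from that in DMSO by the interaction test (edgeR quasi-likelihood, Benjamini-Hochberg over all genes). The differences were −1.61 ± 0.27 for Zbp1 (log2, SE, adjusted p = 0.00389), −0.62 ± 0.10 for Irf1 (adjusted p = 0.0023), −0.72 ± 0.17 for Gbp2 (adjusted p = 0.0266) and −0.50 ± 0.12 for Dtx3l (adjusted p = 0.0385). In each of the 4, all 3 DMSO+FGF2 libraries lay above all 3 DMSO libraries, as in 57.5% of the set and 19.2% of all genes. The interaction test used the same libraries, so this is not independent of it. Dtx3l also had all BGJ398+FGF2 libraries below all BGJ398 libraries, which the other flagged genes did not. Ddx58 and Adar of the set did too, 7.5% of the set with Dtx3l. The share of all genes was not counted, so this cannot be read as a trait of Dtx3l.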

How the results depend on the processing

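Of the log2 fold changes called for genes of the set, 0 changed sign under any setting. Of 12 genes called for FGF2 in DMSO, 19 for BGJ398 with FGF2 and 4 for the interaction, 6, 17 and 2 kept the call in all settings run. Besides the losses named above, length-scaled TPM ended the FGF2 calls of Ifit1 (adjusted p = 0.0553) and Oasl2 (adjusted p = 0.168), the BGJ398 calls of Gbp3 (adjusted p = 0.117) and Ifi44 (adjusted p = 0.0851) and the interaction of Dtx3l (adjusted p = 0.0637), a fit of only the groups compared ended those of Gbp3 (adjusted p = 0.0829) and Ifi44 (adjusted p = 0.0669), and leaving out the 3 libraries that deviated together ended that of Ifit1 for FGF2 (adjusted p = 0.0808). Calls were also gained by genes that did not pass in the main fit. For FGF2 in DMSO, Isg15 was called in 6 of 21 other settings, B2m in 5 and Dhx58 in 4. Stat2 and Bst2 were called in 2 each, and Cxcl10 and Ifi44 in 1 each. For BGJ398 with FGF2, Ifit2, Bst2 and Ifi35 were called in 2 each. For the interaction, Irf7 was called in 5 of 20, Isg15 in 4, and Oas2, Parp14 and Psmb8 in 3 each. Ccl5 was called in 2, and Stat2, Dhx58 and Bst2 in 1 each. The causes were not tested.

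Leaving out each library in turn gave 7 to 15 genes of the set for FGF2 in DMSO, 0 to 0 for FGF2 under BGJ398 and for BGJ398 without FGF2, 17 to 21 for BGJ398 with FGF2 and 2 to 7 for the interaction. Over all genes it gave 1018 to 2256, 0 to 1, 9 to 104, 1948 to 3345 and 328 to 956 in the same order. As shares, the set gave 17.5% to 37.5%, 0%, 0%, 42.5% to 52.5% and 5% to 17.5%. All genes gave 8.04% to 17.8%, 0% to 0.0079%, 0.0711% to 0.82%, 15.4% to 26.4% and 2.59% to 7.54%. The count of all genes for FGF2 in DMSO fell by more than 1.5 times without DMSO replicate 2 (1052), DMSO replicate 3 (1018) or DMSO+FGF2 replicate 2 (1086). For the interaction the count of all genes was 328 and 337 when DMSO replicate 2 or 3 was left out, and 956 without BGJ398+FGF2 replicate 2. For the interaction, 8 genes of the set (19.5%) were called with no low-count filter, 10 (25%) by DESeq2 and 9 (22.5%) without the 3 libraries that deviated together. Of all genes, the interaction called 3.14%, 6.55% and 8.23% in these settings. Over all genes it called 821 by DESeq2, 345 with length-scaled TPM and 1038 without those 3 libraries. BGJ398 with FGF2 called 1794 genes from only the groups compared and 1816 with length-scaled TPM. FGF2 in DMSO called 2611 genes without the 3 libraries. FGF2 under BGJ398 called 6 genes with no low-count filter, 5 by DESeq2, 1 from only the groups compared and 4 without the 3 libraries. BGJ398 without FGF2 called 83 genes with no filter, 149 by DESeq2, 64 from only the groups compared, 12 with length-scaled TPM and 730 without the 3 libraries, where 3 were genes of the set.

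Same-numbered libraries of different groups had correlations of their deviations from −0.15 to 0.24. Differently numbered libraries were not set beside them, so these values cannot decide whether the replicate numbers pair libraries. With the replicate number as a block, 12, 0, 0, 18 and 4 genes of the set were called in the order above. These were 30%, 0%, 0%, 45% and 10% of the set, against 12%, 0%, 0.167%, 20.5% and 3.41% of all genes. For BGJ398 without FGF2, 21 of all genes were called. Mx1, with 9 reads, could not be tested at this depth, and Mx2 and Rsad2, at 2.76 and 3.40 CPM, had SEs of 0.21 and 0.20 (log2) for FGF2 in DMSO. Whether depth cost calls was not tested, and each group had only 3 libraries.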
